A study of Mus musculus with 5 samples.

Results

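The neurofilaments and neuronal microtubule proteins examined here are 10 genes chosen by name from the 23997 gene names of an RNA-seq table of the mouse cerebral cortex at embryonic day 16 (E16). They are the neurofilament genes Nefl, Nefm and Nefh, the related neuronal intermediate filament gene Ina, the structural microtubule protein genes Map2, Mapt and Map1b, and the growth and migration genes Stmn2, Dcx and Gap43. All 10 were found once in the table and all 10 passed the filter on low values, which asked for 0.1 FPKM or more on average across the 5 libraries. FPKM counts the fragments of a gene per kilobase of its transcript, relative to all mapped fragments of that library, so levels of different genes can be set side by side.

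The study deleted Uhrf1, which couples DNA replication to the copying of CpG methylation, from the precursors of cortical neurons. The conditional knockout (cKO) group was Emx1-Cre/+ with both Uhrf1 alleles floxed, labelled Uhrf1 -/-, and held 2 libraries, MG18 and MG19. The control group was Emx1-Cre/+ with 1 floxed allele, labelled Uhrf1 +/-, and held 3 libraries, MG15, MG16 and MG17. All were whole E16 cortices of C57BL/6 mice, so every embryo carried the Cre allele and the controls were heterozygous rather than wild type. Emx1-Cre is active in the dorsal telencephalon, and the interneurons that migrate in from the ventral telencephalon, the microglia and the vessels of the dissected cortex lie outside that lineage and keep Uhrf1. Each library is a separate biological replicate per the study's methods.

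Neurofilaments are the intermediate filaments of neurons. They assemble from a light (Nefl), a medium (Nefm) and a heavy (Nefh) subunit together with alpha-internexin (Ina) in the central nervous system, and they set the calibre of large axons. During development Ina comes on early, Nefl and Nefm follow, and Nefh is added as axons mature. Microtubules carry the transport of the same axons and are bound by Map2 in the soma and dendrites, tau (Mapt) in the axon and Map1b in growing neurites. Doublecortin (Dcx) bundles microtubules in migrating neurons, Stmn2 destabilises microtubules at growth cones, and Gap43 is a membrane protein of the growth cone.

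Uhrf1 itself measured 2.75 and 2.61 FPKM in the cKO libraries against 7.24, 13.2 and 12.95 FPKM in the controls. The log2 fold change was -1.97 (SE 0.28), with an adjusted p = 0.00771 by limma after Benjamini-Hochberg adjustment over all 14701 genes tested. A fit that left out MG18 gave an adjusted p = 0.258, and one that left out MG19 an adjusted p = 0.267. The deletion removes exon 4, while FPKM covers the whole transcript. The files hold no read counts. The steps between low FPKM values gave an approximate depth of 8000000 and 9900000 fragments in the cKO libraries and of 10000000 to 38000000 in the controls, MG15 being the deepest. The first principal component (49.6% of the variance) separated the groups, while the second (21.0%) set MG17 and MG18 apart from MG16 and MG19, a split that runs across both groups. Ddx3y, a Y-linked gene that marks male embryos, was at 13.3 FPKM in the cKO library MG18 and at 19.4 and 21.8 FPKM in the controls MG15 and MG17, against 0 FPKM in the cKO library MG19 and 0.0141 FPKM in the control MG16. The numbers that end the library titles are close to each other for the cKO libraries MG18 and MG19 and the control MG17, and lower for the controls MG15 and MG16. The labels do not say what these numbers mark.

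Levels of the 10 genes differed widely in the control cortex. Stmn2 had the highest mean level (532.4 ± 82.4 FPKM), followed by Map2 (319.4 ± 13.3), Gap43 (296.2 ± 49.1), Mapt (231.1 ± 51.1), Dcx (197.8 ± 35.8), Map1b (154.5 ± 28.3), Nefl (63.6 ± 10.8), Ina (61.2 ± 15.2), Nefm (19.0 ± 8.79) and Nefh (0.219 ± 0.0270; SD, n = 3 each). Between neighbours in this order the control values overlapped, except between Stmn2 and Map2, Map1b and Nefl, Ina and Nefm, and Nefm and Nefh. The median gene tested had a mean of 9.02 FPKM, so every gene but Nefh was above it. In the cKO cortex the intermediate filament part of the order differed: Nefl averaged 22.5 ± 14.1 FPKM and lay below Ina (68.3 ± 25.2 FPKM) in both libraries (SD, n = 2).

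**Figure D1:**
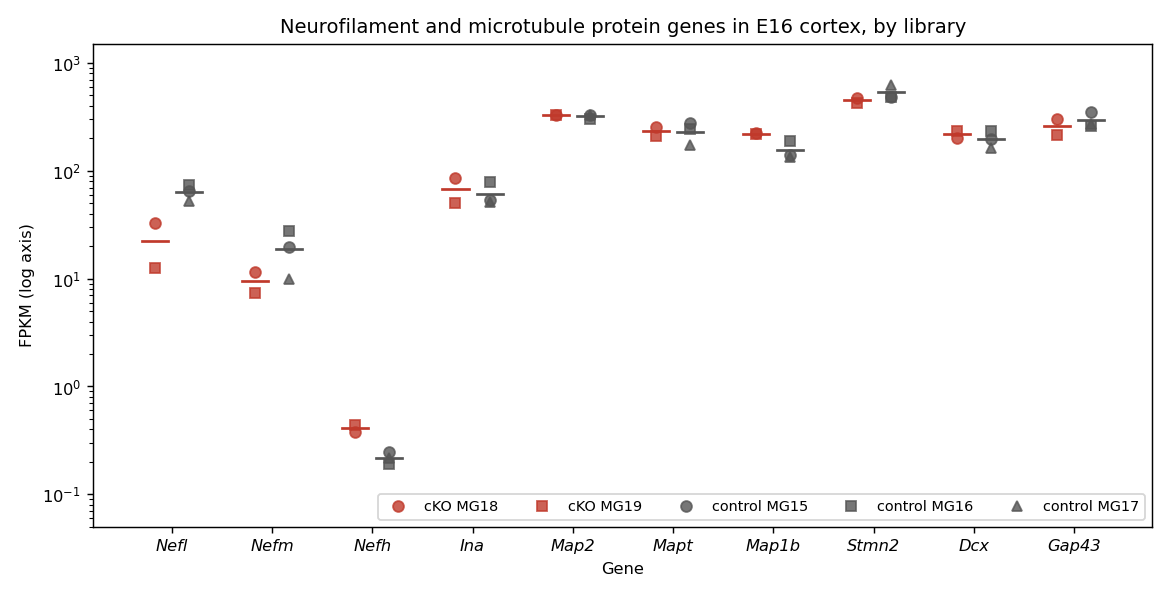
FPKM (log axis) of the 10 genes in each library, with cKO libraries in red to the left of control libraries in grey and a short line at each group mean. Both cKO values of Nefl (32.5 and 12.6 FPKM) lie under the lowest control value (52.1 FPKM), both of Map1b and of Nefh lie above all controls, and Map2 sits between 304.0 and 327.5 FPKM in all 5 libraries.

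Which of these genes differed with loss of Uhrf1 was asked with one limma fit over all 14701 genes, on log2(FPKM + 0.1), so that fold changes of low genes are understated. At the study's threshold, more than 2-fold at an unadjusted p below 0.05, 1 of the 10 genes was lower in cKO (Nefl) and 0 were higher. Over all genes tested 1.16% were lower and 2.88% higher by that rule. At the unadjusted p alone 2 genes were lower (Nefl and Nefm, against 5.18% of all genes) and 1 was higher (Map1b, against 6.36%). After adjustment 0 of 10 passed by limma, where 0.163% of all genes were lower and 1.10% higher. By rank, Nefl and Stmn2 lay below all controls in both cKO libraries and Nefh and Map1b above them, beside 16.3% and 14.5% of all genes, and the other 6 genes overlapped. The median log2 fold change of the 10 genes was 0.03, and that of all genes tested was -0.02. Cortical tissue is a mixture, and fewer cells of a type cannot be told apart from less RNA per cell in such samples.

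Nefl, the light subunit on which neurofilament assembly depends, measured 32.5 FPKM in MG18 and 12.6 FPKM in MG19, the cKO libraries, against 65.0, 73.6 and 52.1 FPKM in the controls MG15, MG16 and MG17. Both cKO libraries were low, MG19 more so than MG18, and the groups did not overlap. On average cKO cortices held 35.5% of the control level, a log2 fold change of -1.63 (SE 0.34, 95% interval -2.40 to -0.87) with an adjusted p = 0.0624 by limma. The gene ranked number 213 of all genes by p. The exact permutation test over the 5 libraries gave p = 0.1, which is the smallest that 10 regroupings allow. Without MG19 the log2 fold change was -0.95 (adjusted p = 0.371), under 2-fold, and without MG18 it was -2.32 (adjusted p = 0.0598), while leaving out any one control gave -1.77 to -1.52. With embryo sex as a covariate, taken from Ddx3y, it was -1.57 (adjusted p = 0.0909 by limma). Both cKO values were also below MG17 alone, the control nearest in title number. The approximate number of fragments behind the values was 882 and 422 in cKO and 1806 to 8412 in controls, so that the difference between MG18 and MG19 is larger than counting error.

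Nefm, the medium subunit, had 11.4 and 7.41 FPKM in cKO cortices against 19.6, 27.5 and 9.94 FPKM in control cortices. The groups overlapped, since MG17, the control nearest to the cKO libraries in title number, lay between them. Its log2 fold change was -0.92 (SE 0.38, 95% interval -1.77 to -0.07), with p = 0.0362 before and 0.401 after adjustment by limma, and p = 0.3 by the exact permutation test. The unadjusted call of limma did not hold without MG15 (-0.84), MG16 (-0.60), MG18 (-1.23) or MG19 (-0.61), and held without MG17 (-1.33, adjusted p = 0.0771). The adjusted p was 0.578 to 0.729 in the 4 fits that lost it.

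Nefl and Nefm are neighbours on chromosome 14. RefSeq places Nefl at chr14:68083863-68089095 and Nefm at chr14:68119545-68125004 of GRCm38.p6 (the mm10 assembly), with 30449 bases between them. Of the 11 genes within 500000 bases of the pair, a window chosen after the values were seen, 6 were tested, and only Nefl and Nefm passed the unadjusted threshold. The genes on the Nefl side, Cdca2 (-0.24), Kctd9 (-0.02) and Dock5 (0.40, at 0.0806 to 0.263 FPKM), and the lncRNA A230070E04Rik on the Nefm side (-0.00) all overlapped between groups. That lncRNA spans chr14:68123752-68131371 and shares 1 end with Nefm. Whether fragments were counted by strand is not given in the sources used here, so reads of the shared stretch could be split between the genes.

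Nefh, the heavy subunit of mature axons, was at the edge of detection, with 0.375 and 0.441 FPKM in the cKO libraries against 0.246, 0.192 and 0.218 FPKM in the controls. These values rest on about 12 and 18 fragments in cKO and 9 to 38 in controls. Both cKO values lay above all controls, in the opposite direction to Nefl, and the log2 fold change was 0.67 (SE 0.40, 95% interval -0.22 to 1.57, adjusted p = 0.545 by limma; exact permutation p = 0.1). With a pseudocount of 1, which is above all its values, the log2 fold change was 0.21.

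Ina encodes alpha-internexin, the filament protein that young central neurons make before the neurofilament triplet. It had 86.1 and 50.5 FPKM in cKO cortices against 53.5, 78.7 and 51.5 FPKM in controls, with the cKO libraries at the top and the bottom of all 5. MG18 was above the controls that share its high Ddx3y, and MG19 was below the control that shares its low Ddx3y, a contrast that was not tested. The log2 fold change was 0.13 (SE 0.26, 95% interval -0.45 to 0.72, adjusted p = 0.863 by limma), an interval that allows a moderate change in either direction.

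The balance between subunits was then read within each library, where a factor common to all genes of a library cancels. The Ina to Nefl ratio was 2.65 and 4.02 in cKO libraries against 0.823, 1.07 and 0.987 in controls. Likewise, the Nefh to Nefl ratio was 0.0115 and 0.0351 in cKO against 0.00378, 0.00261 and 0.00418 in controls. Neither ratio overlapped between groups, with differences of 1.77 and 2.31 on the log2 scale (exact permutation p = 0.1 each, 0.35 after Benjamini-Hochberg adjustment over the 7 ratios computed). Since Nefh was above and Nefl below all controls, their ratio had to keep apart and adds no further observation, and its difference was 1.53 without MG19 and 3.08 without MG18. The Ina to Nefl difference mostly restates that of Nefl (log2 fold change -1.63), since Ina differed by 0.13. Nefm to Nefl was 0.351 and 0.590 in cKO and 0.302, 0.373 and 0.191 in controls, and here MG18 lay within the controls (difference 0.71, exact permutation p = 0.3, adjusted 0.525).

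**Figure D2:**
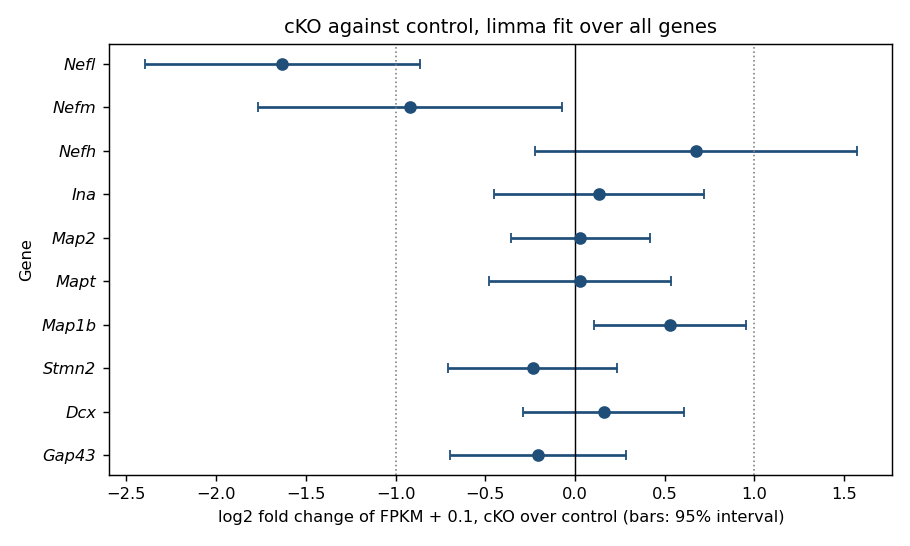
Log2 fold change of FPKM + 0.1, cKO over control, for each of the 10 genes, with bars for the 95% interval of the limma fit and dotted lines at a 2-fold change. The intervals of Nefl (-2.40 to -0.87), Nefm (-1.77 to -0.07) and Map1b (0.10 to 0.96) leave out 0, and the other 7 include it.

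Of the structural microtubule protein genes, Map1b was higher in cKO at the unadjusted threshold, and Map2 and Mapt overlapped. Map1b, which stabilises microtubules of growing axons, had 221.9 and 219.8 FPKM in cKO libraries against 140.9, 187.0 and 135.6 FPKM in controls. Its cKO values were nearly equal and lay above all 3 controls, at 142.9% of their mean (log2 fold change 0.53, SE 0.19, 95% interval 0.10 to 0.96). By limma p was 0.0199 before and 0.327 after adjustment, and the exact permutation test gave p = 0.2. Without MG15 (0.47), MG18 (0.52) or MG19 (0.54) the unadjusted limma p was above 0.05, and without MG16 (0.68) or MG17 (0.44) the call held.

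Map2, the dendritic protein often used to stain neurons, was the steadiest of the 10 genes, with 326.1 and 326.0 FPKM in cKO libraries against 327.5, 304.0 and 326.6 FPKM in controls. Its highest and lowest libraries differed by a factor of 1.08, and its 95% interval for the log2 fold change was -0.36 to 0.42 (0.03, SE 0.17, adjusted p = 0.955 by limma). Mapt, the gene of the axonal protein tau, had 257.5 and 208.6 FPKM in cKO against 274.9, 243.5 and 175.0 FPKM in controls (log2 fold change 0.03, SE 0.22, 95% interval -0.48 to 0.54, adjusted p = 0.969 by limma). Both cKO values of Mapt lay inside the control range. Set against Map2 in the same library, Map1b was 0.680 and 0.674 in cKO and 0.430, 0.615 and 0.415 in controls, without overlap (difference 0.50 on the log2 scale, exact permutation p = 0.2, adjusted 0.467), whereas the Mapt to Map2 ratio overlapped (0.790 and 0.640 in cKO, 0.839, 0.801 and 0.536 in controls).

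The other genes are spread over the genome. In the same RefSeq annotation Nefh at chr11:4938754-4948064 and Mapt at chr11:104229409-104332090 share chromosome 11, and Ina at chr19:47014681-47025327, Map2 at chr1:66175202-66442583 and Map1b at chr13:99421464-99516602 lie apart from them. The growth and migration genes are Stmn2 at chr3:8509527-8561604, Dcx at chrX:143855842-143933396 and Gap43 at chr16:42248552-42340651.

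RefSeq promoter windows of GRCm38.p6 were matched for 4 of the 10 genes, Map1b, Ina, Map2 and Dcx. Since Uhrf1 acts through CpG sites, the 250 bases before the start site are shown for Map1b, the microtubule gene that differed at the unadjusted threshold, and for Ina, a filament gene that did not, with every CG in capitals and each read 5′ to 3′ on the strand of its gene. The Map1b window lies at chr13:99516603-99516852 (minus strand) and the Ina window at chr19:47014431-47014680 (plus strand).
Map1b: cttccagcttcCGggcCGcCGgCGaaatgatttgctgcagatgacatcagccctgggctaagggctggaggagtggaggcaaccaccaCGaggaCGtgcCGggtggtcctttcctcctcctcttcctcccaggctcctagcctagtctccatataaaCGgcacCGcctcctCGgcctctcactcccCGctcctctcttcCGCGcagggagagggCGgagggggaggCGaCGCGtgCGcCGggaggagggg
Ina: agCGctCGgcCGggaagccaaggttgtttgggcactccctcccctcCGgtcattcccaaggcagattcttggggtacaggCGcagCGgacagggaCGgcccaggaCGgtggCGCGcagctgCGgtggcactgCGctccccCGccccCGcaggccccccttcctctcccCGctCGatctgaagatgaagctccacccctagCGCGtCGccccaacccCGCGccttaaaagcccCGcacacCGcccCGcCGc
The letters CG, which read the same on both strands, occur 19 times in the Map1b window and 25 times in the Ina window. Map2 has 34 in chr1:66175079-66175328 and Dcx has 3 in chrX:143933220-143933469. Part of each of these windows lies inside the gene span given above. Another Dcx window, at chrX:143933125-143933374, lies wholly inside that span and also holds 3. Of 32851 windows of the same length 19.7% hold at least as many as Map1b, 10.7% at least as many as Ina and 3.52% at least as many as Map2, while 37.8% hold at most as many as Dcx, and the median is 6. Windows of Nefl and Nefm were not matched, and a relation of CpG count to the differences between groups was not tested. These counts describe the sequence, and methylation was not analysed here.

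The growth and migration genes overlapped between groups or differed little. Stmn2, the most abundant of the 10, had 473.1 and 426.2 FPKM in cKO libraries against 488.7, 481.1 and 627.5 FPKM in controls. Both cKO values lay below the lowest control, that of MG18 only just. The log2 fold change was -0.23 (SE 0.21, 95% interval -0.71 to 0.24, adjusted p = 0.682 by limma, exact permutation p = 0.3). Gap43 had 299.8 and 215.5 FPKM in cKO against 352.6, 263.1 and 273.0 FPKM in controls, with MG18 inside the control range and MG19 below it (log2 fold change -0.21, SE 0.22, 95% interval -0.70 to 0.28, adjusted p = 0.734 by limma).

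Dcx, expressed by neurons on the move and linked in humans to lissencephaly, had 202.6 and 235.6 FPKM in cKO libraries against 197.6, 233.7 and 162.1 FPKM in controls. The groups overlapped, and the log2 fold change was 0.16 (SE 0.20, 95% interval -0.29 to 0.61, adjusted p = 0.779 by limma). Within libraries, the Dcx to Map2 and Gap43 to Stmn2 ratios overlapped between groups too, with differences of 0.13 and 0.03 on the log2 scale (exact permutation p = 0.7 and 0.9, adjusted 0.98 and 1). For these genes a change of 2-fold lies outside the 95% interval in either direction, as it does for Map2, Mapt, Ina and Map1b.

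To set the 10 genes against other neuronal transcripts, each log2(FPKM + 0.1) was taken relative to the mean of 15 pan-neuronal markers in the same library. The markers had a median log2 fold change of 0.11, with 1 of 15 past the unadjusted threshold in limma (Eno2, 0.52). Single markers ranged from -0.80 to 0.68, with 10 positive and 5 negative, so the reference averages over differences in both directions. Tubb3, the neuronal tubulin with the highest level among them, averaged 1650 FPKM in cKO and 1756 FPKM in controls (log2 fold change -0.08), and Uchl1 averaged 349.8 FPKM in cKO and 370.5 FPKM in controls (-0.07). On this relative scale Nefl was -0.46 and -1.41 in cKO libraries against 0.75, 0.94 and 0.65 in controls, a difference of -1.72 (exact permutation p = 0.1, the smallest possible), and so its difference was about as large as on the plain scale.

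Nefm, whose groups overlapped in FPKM, did not overlap on the relative scale, at -1.96 and -2.16 in cKO against -0.98, -0.47 and -1.73 in controls (difference -1.003, exact permutation p = 0.2). With Tubb3 alone as the marker the groups overlapped again, the cKO library MG18 lying above the control MG17. The difference was then -0.84 (exact permutation p = 0.3), so the separation of Nefm depended on the markers chosen. Map1b was 2.31 and 2.71 in cKO against 1.86, 2.29 and 2.03 in controls (difference 0.45, exact permutation p = 0.2), with MG18 only just above MG16. Nefh also lay above all controls (difference 0.59, exact permutation p = 0.1), but its difference was 0.13 with a pseudocount of 1 (exact permutation p = 0.7). Gap43 lay below the controls (-0.29, exact permutation p = 0.2), and its difference was -0.12 with Tubb3 alone (exact permutation p = 0.3), while Stmn2 overlapped with the controls on this scale (-0.32, exact permutation p = 0.6). Ina, Map2, Mapt and Dcx overlapped, with differences between -0.05 and 0.08.

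**Figure D3:**
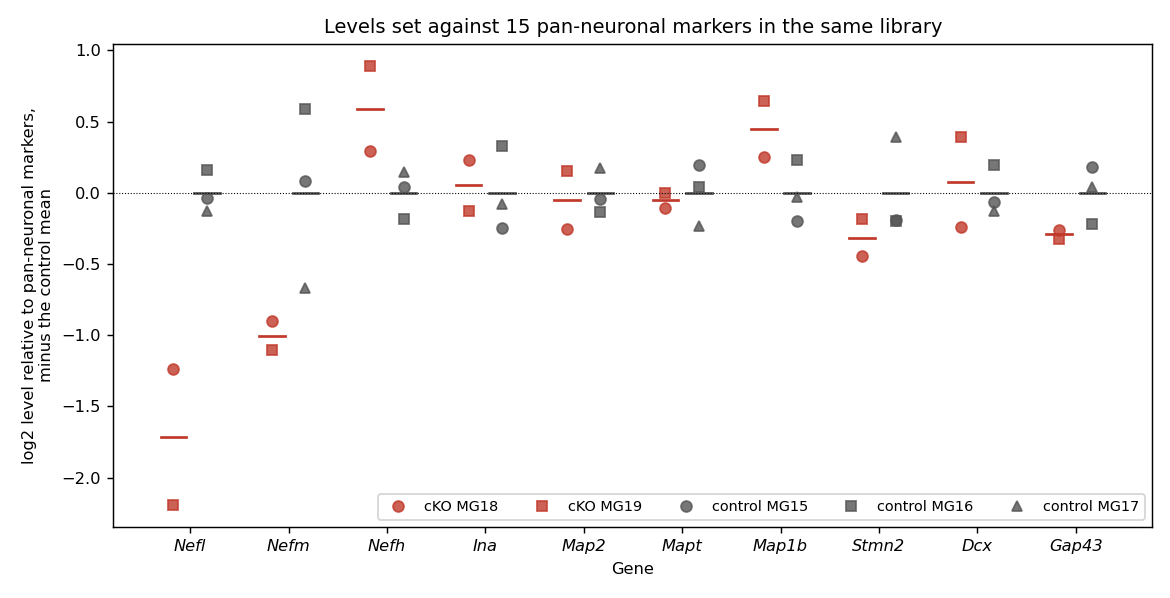
Log2 level of each gene relative to 15 pan-neuronal markers of the same library, with the control mean of each gene set to 0, cKO libraries in red to the left of controls in grey, and lines at the group means. Nefl (mean difference -1.72) and Nefm (-1.003) lie below their controls, Nefh (0.59) and Map1b (0.45) above them, and Ina, Map2, Mapt and Dcx are within 0.08 of 0 on average.

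Other genes of the neuronal cytoskeleton were read from 9 lists with 106 genes, 102 of which were tested. At the unadjusted threshold by limma 7 were higher in cKO (6.86%, beside 6.36% of all genes) and 2 lower (1.96%, beside 5.18%), 3 and 0 of them by over 2-fold, and 1 passed adjustment. Their median log2 fold change was 0.05, beside -0.02 for all genes. The lowest value among the 102 was -0.65, so none lay as low as Nefl or Nefm. In rank 18 lay above all controls and 9 below them, where 14.5% and 16.3% of all genes did. The named genes of these lists were not refitted without single libraries.

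Among 5 tested genes of other intermediate filament proteins of neural cells 2 were higher and 1 lower. Gfap, the astrocyte filament gene, had 2.91 and 2.52 FPKM in cKO against 0.833, 0.424 and 0.224 FPKM in controls and was the gene past the adjusted threshold (log2 fold change 2.37, SE 0.44, adjusted p = 0.0360 by limma). Prph encodes peripherin, which joins neurofilaments in peripheral neurons, and had 2.84 and 1.59 FPKM in cKO against 0.985, 1.08 and 0.428 FPKM in controls (log2 fold change 1.34, adjusted p = 0.265). Nes, the filament gene of neural progenitors, had 40.4 and 37.3 FPKM in cKO against 57.6, 59.0 and 49.4 FPKM in controls (log2 fold change -0.51, adjusted p = 0.245). None of these groups overlapped.

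Of 7 tested genes of the doublecortin family and its partners 2 were higher in cKO. Dclk3, a doublecortin-like kinase gene, had 1.10 and 0.899 FPKM in cKO against 0.171, 0.274 and 0.275 FPKM in controls (log2 fold change 1.70, adjusted p = 0.0817 by limma). Dclk1, which binds microtubules as Dcx does and acts with it in migrating neurons, had 85.8 and 93.5 FPKM in cKO against 70.9, 77.1 and 60.9 FPKM in controls (0.37, adjusted p = 0.430). Both lay above all controls, whereas Dcx itself overlapped.

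The stathmin and collapsin response mediator list (8 tested) held Dpysl5, a cytosolic protein of growing neurites, at 51.3 and 45.1 FPKM in cKO against 33.4, 38.5 and 30.7 FPKM in controls (log2 fold change 0.50, adjusted p = 0.285 by limma). Stmn2, of the same stathmin family, differed by -0.23. In the list of kinases and phosphatases that act on tau and other microtubule proteins (14 tested) 1 gene was higher and 1 lower. Cdk5, the kinase that phosphorylates neurofilament tails and tau, had 35.4 and 30.6 FPKM in cKO against 44.6, 37.8 and 46.1 FPKM in controls (-0.37, adjusted p = 0.421). Its activator gene Cdk5r2 had 8.37 and 3.13 FPKM in cKO against 3.12, 2.25 and 2.69 FPKM in controls (0.92, adjusted p = 0.401), with MG18 high and MG19 barely above the highest control. Dst, a linker between intermediate filaments and other filaments, was the 1 of 8 genes of the spectrin and ankyrin list to pass, at 34.3 and 43.6 FPKM in cKO against 27.1, 33.4 and 21.8 FPKM in controls (0.51, adjusted p = 0.395).

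In the 4 remaining lists no gene passed the unadjusted threshold by limma, and the most abundant genes of each stayed close to 0. These were other microtubule associated proteins (17 tested, 13 with a positive and 4 with a negative log2 fold change; Mapre1 -0.07, Camsap2 -0.05), growth cone membrane proteins (12 tested; Gpm6a -0.15, Marcksl1 -0.01), severing and turnover enzymes (15 tested; Spast 0.03, Atat1 0.18) and axonal transport motors (16 tested; Kif5c -0.05, Klc1 0.08).

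**Figure D4:**
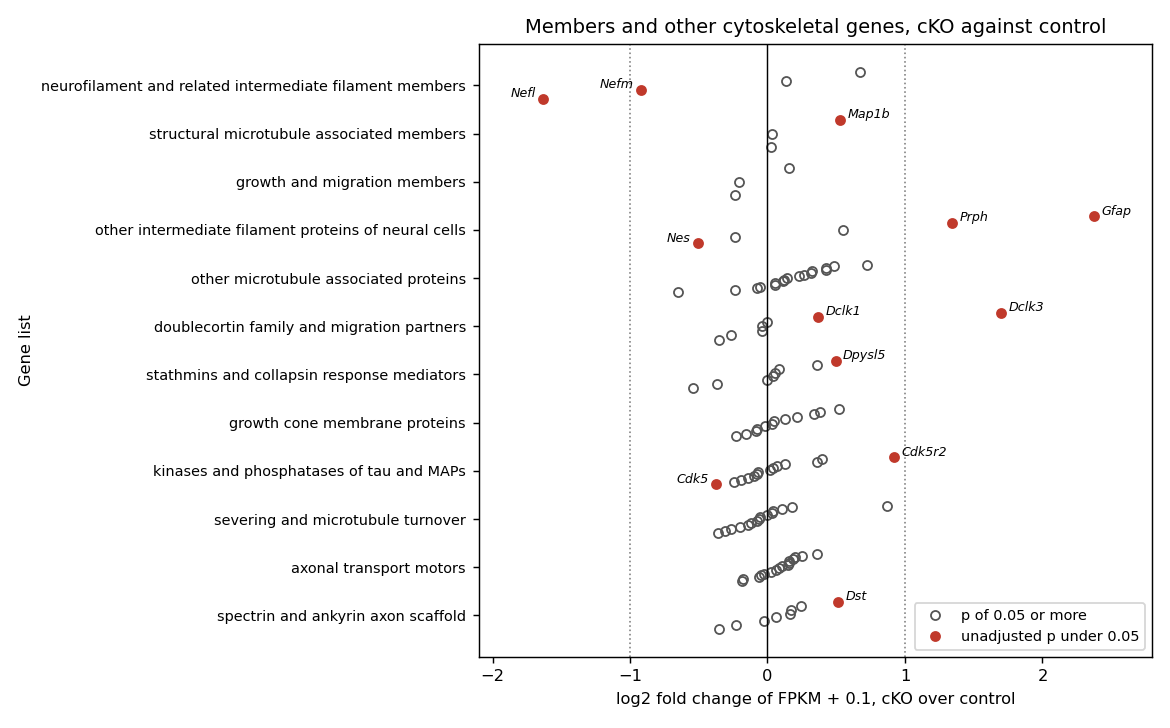
Log2 fold change of FPKM + 0.1, cKO over control, of each tested gene (circles) in the 3 groups of the 10 genes and in 9 other cytoskeletal lists. Filled red circles mark an unadjusted limma p under 0.05 and are named, dotted lines mark a 2-fold change, and none of the 102 other genes lies as low as Nefl (-1.63) or Nefm (-0.92).

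For each gene the profiles most like it over the 5 libraries were found by the Euclidean distance between centred log2(FPKM + 0.1) values, among the 12086 other genes averaging 1 FPKM or more. Nearest to Nefl were Rln1 (distance 0.199), with 0.783 and 0.196 FPKM in cKO against 1.73, 1.85 and 1.25 FPKM in controls, and Fam132a (0.642). Both share with Nefl the order of the cKO libraries, MG19 below MG18. Nefm was the 56th nearest gene to Nefl, at a distance of 1.17 where the median was 2.07. From Nefm, Nefl was the 477th nearest, where the median distance was 1.55. Nearest to Nefm were Asic2 (0.317) and 1600029O15Rik (0.393). For none of the 10 genes was another of them among the 2 nearest. Map1b was nearest to Nrm and Arhgap17, Nefh to 4833424O15Rik and Pdlim5, Ina to Nckap5l and Zfp341, and Map2 to BC068281 and Dnajc19. Mapt was nearest to Hk1 and Vash1, Stmn2 to Ttc30a1 and Alcam, Dcx to Sgip1 and Dusp18, and Gap43 to Hdac11 and Mid1ip1. With 5 libraries such distances are a description and carry no test.

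Markers of the cells in the sample were read beside these results, as counts at the unadjusted limma threshold, which 6.36% of all genes passed as higher and 5.18% as lower, and as summed FPKM. Of deep layer projection neuron genes 0 of 8 were higher and 1 was lower, Crym, with 20.3 and 9.71 FPKM in cKO against 53.4, 36.7 and 24.2 FPKM in controls (-1.36, adjusted p = 0.171 by limma), while Sox5 (-0.15) and Tbr1 (0.32), the most abundant, did not pass, and the list summed to 216.5 to 239.8 FPKM in cKO and 198.0 to 280.3 FPKM in controls. Of upper layer genes 3 of 8 were higher (median 0.32), and the 2 most abundant, Pou3f3 (0.26) and Mef2c (0.03), did not pass. Progenitor genes were lower for 4 of 12, Pax6 (-0.68), Eomes (-0.79), Neurog2 (-0.69) and Top2a (-0.59), and by sign 9 were negative and 3 positive. Their list summed to 1065 to 1241 FPKM in cKO and 1364 to 1969 FPKM in controls. Most of that sum was Fabp7 (-0.52), which did not pass. Interneuron and ventral telencephalon genes were positive for all 12 and higher for 5 of 12, Gad1 (0.63), Gad2 (0.44), Dlx1 (0.65), Dlx2 (0.89) and Slc32a1 (0.64). The list summed to 232.5 to 375.7 FPKM in cKO and 200.8 to 240.8 FPKM in controls. Much of the highest sum was Npy (134.1 FPKM) and Sst (78.2 FPKM) in MG18. These 2 most abundant genes (Npy 0.36, Sst 0.63) did not pass and overlapped between groups. Cajal-Retzius genes were lower for 3 of 7 (Calb2 -0.90, Ndnf -0.48, Reln -0.41). Calb2 had 7.12 and 5.85 FPKM in cKO against 13.1, 11.65 and 11.8 FPKM in controls (adjusted p = 0.0527 by limma), while Ndnf overlapped between groups. The list summed to 90.3 to 101.9 FPKM in cKO and 109.8 to 144.4 FPKM in controls, most of it Reln. The part of these cells in the Nefl and Nefm values was not tested.

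The remaining lists covered striatal neurons (2 of 7 higher; Ppp1r1b -0.06, Rgs9 -0.06), thalamic neurons (0 of 5 past the threshold in either direction; Slc17a6 -0.17, Rora 0.34), astrocytes (2 of 6 higher, Gfap and Gja1; Aldoc -0.39, Aldh1l1 0.10), the oligodendrocyte lineage (3 of 7 higher; Olig1 0.92, Pdgfra 0.79), microglia (3 of 8 higher; C1qc 0.48, C1qb 0.67), endothelium and pericytes (1 of 7 higher; Cldn5 -0.05, Rgs5 -0.05) and meninges (2 of 5 higher; Dcn 1.06, Col3a1 0.08). The genes given with a value are the 2 most abundant of each list, and of them only Olig1 and Pdgfra passed. Red blood cell genes summed to 452.3 to 511.6 FPKM in cKO and 597.9 to 923.6 FPKM in controls (1 of 8 higher and 2 lower; Hbb-bs -0.74, Hbb-bt -0.47), with the near-identical Hba copies uncertain. Peripheral sensory neuron markers, which bear on Prph and Nefh, summed to 0.825 to 1.65 FPKM in cKO and 0.184 to 0.459 FPKM in controls. Of the 3 that were tested Isl1 (1.88) passed the unadjusted threshold and P2rx3 (0.68) did not, and Pou4f1 and Scn10a were under the filter. Scn10a was listed at 0 in every library but 1, and no marker of any list was at 0 in all libraries. The part of these cells in the Nefh and Prph values was not tested.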

How the data were processed

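The authors deposited FPKM values, which they made from rRNA-depleted, directional libraries of whole E16 cortices read as pairs of 100 bases. Reads were mapped to mm10 with TopHat2, filtered (by the stated aim) for proper pairs and against multiply mapped, duplicated and poor alignments, and quantified by Cuffdiff and cummeRbund (versions, annotation and strand setting: not given in the sources used here). As printed, the samtools options would do the reverse of that aim, so which reads the values rest on is uncertain. Columns for 2 cKO and 3 control libraries were matched to the labels by library name, and 0 columns were unmapped. Without counts no count test was used.

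From the deposited FPKM, log2(FPKM + 0.1) was fitted with limma 3.58.1 in R 4.3.3 (eBayes with a trend on the mean, no covariate), and p-values were adjusted by Benjamini-Hochberg over the 14701 genes that averaged 0.1 FPKM or more. Names of 1230 small RNAs were left out, since these took 39.3 and 56.4% of summed FPKM in cKO libraries and 64.8 to 88.4% in controls. Alternatives changed the pseudocount, filter, scaling and variance model, added embryo sex (not in the labels, read as male where Ddx3y was over 1 FPKM: MG18, MG15 and MG17) or transcript length, and left out each library. Keeping the small RNA names and a shorter pan-neuronal list were chosen after seeing the data. Single values were also compared by the two-sided exact permutation test. Of the names, 22500 matched RefSeq (GRCm38.p6) by symbol and 1360 by synonym. The fit was tested on simulated data. Approximate depths rest on FPKM steps of which 62.8 to 82.2% fell within 0.25 of a whole fragment, and they take each library as scaled to its own total.

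Named in the text are the 10 genes, Uhrf1, up to 4 genes past the unadjusted threshold of each cytoskeletal list or else its 2 most abundant, the 2 most abundant of each marker list, and 2 nearest profiles. Other marker genes that passed were named after their values were seen. The 10 genes, the lists and the tests were chosen with earlier results of these data known. Python 3.11.15 (numpy 2.4.6, pandas 2.3.3, matplotlib 3.10.9) was used.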

Additional observations from a re-analysis of the deposited data

How the results depend on the processing

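Of 175 log2 fold changes of Uhrf1 and the 10 genes refitted by limma under the alternatives, 157 kept their direction and their side of the unadjusted threshold, most of them for genes that did not pass it in the first place. Relative levels and ratios cannot pass an exact test with these libraries, so they are given as values, and counts of genes are given where they moved by over 1.5 times. Genes past p and 2-fold numbered 423 higher and 171 lower, against 154 and 25 with a pseudocount of 1, 172 and 64 under a minimum mean of 1 FPKM, and 318 and 283 with quantile normalization, and leaving out one library gave 388 to 562 higher and 151 to 313 lower. With FPKM rescaled to the protein-coding total the median of all genes was 0.12 instead of -0.02, the unadjusted calls were 1459 higher and 335 lower instead of 935 and 762, and those past 2-fold 536 and 126. With median centring the unadjusted calls were 847 and 837. Adjusted calls (161 and 24) were 100 and 13 under a minimum mean of 1 FPKM, and 34 to 133 and 2 to 20 without one library. Unadjusted lower calls were 493 to 878 without one library.

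Nefm missed the unadjusted threshold in limma without a filter (-0.92, adjusted p = 0.476), after the protein-coding rescaling (-0.78, adjusted p = 0.477) and without a trend (-0.92, adjusted p = 0.532), and Nefh passed it without a trend (0.67, adjusted p = 0.229). Nefl stayed between -1.66 and -1.49 (adjusted p 0.0567 to 0.214 by limma) under 11 alternatives other than leaving out a library. Correcting for transcript length gave -0.065 for Map2, -0.041 for Mapt and 0.024 for Dcx. For Map1b it gave 0.37 instead of 0.53, the lowest value under the same 11 alternatives. The highest for Map1b was 0.68 (adjusted p 0.20 to 0.42 by limma over these alternatives). Tubb3 as the only marker gave 0.11 for both Map2 and Mapt on the relative scale. The cause of these changes was not tested.

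Leaving out one library gave log2 fold changes of -2.25 to -1.82 for Uhrf1, -2.32 to -0.95 for Nefl, -1.33 to -0.60 for Nefm, 0.44 to 0.68 for Map1b, -0.25 to 0.52 for Ina, -0.0044 to 0.049 for Map2, -0.16 to 0.18 for Mapt and -0.45 to 0.030 for Gap43. On the relative scale the ranges were -0.13 to 0.23 for Ina, -0.26 to 0.15 for Map2, -0.17 to 0.044 for Mapt and -0.24 to 0.39 for Dcx, and for the ratios -0.21 to 0.15 (Mapt to Map2), -0.023 to 0.29 (Dcx to Map2) and -0.15 to 0.22 (Gap43 to Stmn2).

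On the relative scale Nefh was 0.29 without MG19 and 0.89 without MG18, and Map1b 0.25 without MG19 and 0.65 without MG18. No paired analysis was possible because the labels give no replicate number that groups share: the numbers here were given in accession order, and those ending the titles differ in every library. With 2 cKO libraries, the smallest exact p is 0.1, and about 9 to 38 fragments limit Nefh.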
